A study of Mus musculus with 2 samples.

Results

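Scx, Mkx, Tnmd and Cnmd are 4 of the 43346 mouse genes measured in the embryonic limb, chosen by name for their place in tendon and in its relation to cartilage, with earlier results of these data known. Scx (scleraxis) and Mkx (mohawk) are transcription factors of tendon cells, Tnmd (tenomodulin) is a transmembrane protein of maturing tendon cells, and Cnmd (chondromodulin) is its closest relative, made by chondrocytes. All 4 symbols matched 1 gene each in both libraries. The series is total RNA sequencing of limbs of B6NCrl mouse embryos 15.5 days old, with no mutation or treatment named. There was 1 group with 2 libraries, each from its own pool of male and female embryos: replicate 1 came from 78 embryos and replicate 2 from 62. The labels do not say whether forelimbs or hindlimbs were taken, and each pool mixed cartilage, tendon, muscle, skin and vessels. With 1 group there was no contrast between conditions, so the values below are levels, ratios between genes and differences between the pools, without p-values.

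Tendon cells arise from limb mesenchyme that switches on Scx, a basic helix-loop-helix (bHLH) protein that binds DNA paired with a broadly made E protein. Mkx, a homeodomain protein of the TALE class, acts alongside Scx in building the collagen fibrils of tendon, and Tnmd is a known target of Scx and a standard marker of differentiated tendon cells. Cnmd and Tnmd share a BRICHOS domain and a cysteine-rich carboxy-terminal part, and both have been described as inhibitors of vessel growth, Cnmd in the avascular cartilage.

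Levels are given in TPM (transcript abundance scaled to library size), which is per transcript length and so can be compared between genes of a library. In both libraries the order was Tnmd, Cnmd, Mkx, Scx. Means were 276 ± 22.9 TPM for Tnmd, 197 ± 1.25 TPM for Cnmd, 46.3 ± 2.38 TPM for Mkx and 30.2 ± 5.48 TPM for Scx (SD, n = 2 each). Counting all 43346 mouse genes by mean TPM, 1.25% stood above Tnmd, 1.84% above Cnmd, 8.42% above Mkx and 12.1% above Scx. Within each library the deposited TPM intervals of neighbours in this order did not overlap. Those intervals cover counting and the assignment of reads, not the spread between pools. In bulk tissue, few cells with much RNA of a gene cannot be told apart from many cells with little.

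**Figure D1:**
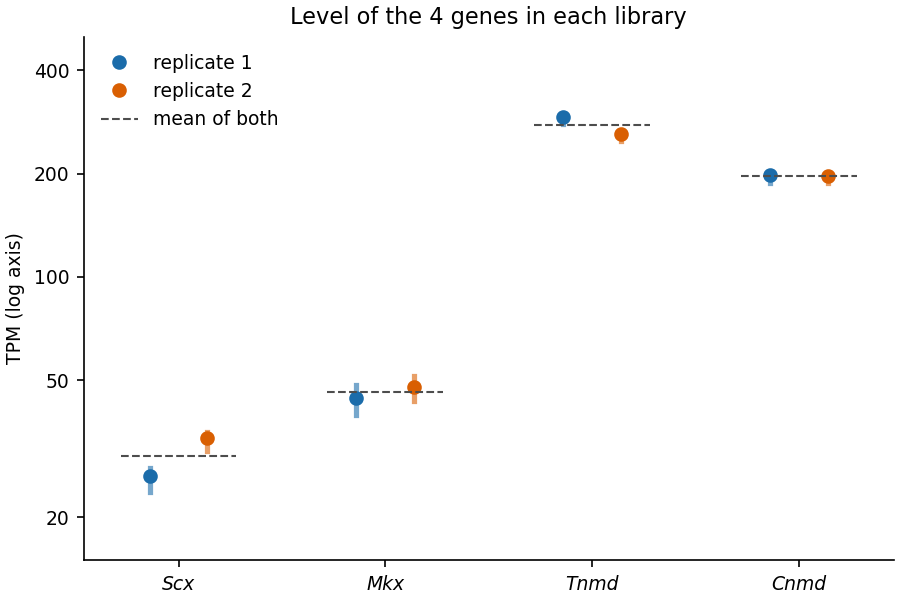
Level of Scx, Mkx, Tnmd and Cnmd in TPM on a log axis, with a point for each library (replicate 1 left of replicate 2), a bar for the deposited interval and a dashed line at the mean. Tnmd and Cnmd lay near 200 TPM or above, Mkx and Scx under 50 TPM, and the bars of the libraries were apart for Scx and Tnmd.

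The limb label was checked against defining genes, and all 7 limb mesenchyme markers reached 1 TPM in both libraries. Of all 43346 mouse genes, 15007 did so, and this is the background for the same count in each list below. Prrx1, a homeobox gene of limb mesenchyme, had 86.3 TPM in replicate 1, against 94.2 TPM in replicate 2. The forelimb factor Tbx5 had 16.04 and 12.02 TPM, and the hindlimb factor Pitx1 had 19.1 and 30.8 TPM, so transcripts typical of both limb pairs were present. The libraries held 35104685 and 41757268 expected counts in replicates 1 and 2. For a gene at 0, up to 3 counts remain possible, or 0.0855 CPM in replicate 1 against 0.0718 CPM in replicate 2 (CPM are counts set relative to the library's total); such limits cover counting error only.

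Scx lies at chr15:76457452-76459458 on the plus strand (ENSMUSG00000034161.7; GRCm38, GENCODE M21). It had 26.3 TPM in replicate 1, from 608 counts, against 34.0 TPM in replicate 2, from 962 counts. The intervals, 23.7 to 27.8 TPM in replicate 1 and 31.3 to 35.4 TPM in replicate 2, did not overlap, and replicate 2 was the higher. The 2-exon Scx gene sits inside an intron of Bop1, a ribosome biogenesis gene that runs on the opposite strand at chr15:76452989-76477277. No Bop1 exon overlapped Scx. Bop1 had 49.7 and 48.5 TPM, and Scx lay below it in both libraries (log2 of Scx over Bop1 -0.92 and -0.51). Whether reads were counted by strand is not given in the sources used here, so unspliced Bop1 RNA on the Scx exons cannot be told apart from Scx RNA.

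The closest relative of Scx among bHLH genes is Tcf15 (paraxis), a factor of somites. Tcf15 had 5.24 and 6.29 TPM in replicates 1 and 2, so Scx was 4.94-fold higher in replicate 1 and 5.34-fold higher in replicate 2. The deposited SD of the sampled gene count was 0 for Scx in both libraries, as it was for Mkx, Tnmd and Cnmd, so none of their reads had been divided with another gene.

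Among 10 bHLH relatives of Scx, Twist2 alone lay above it in both libraries and 8 lay below it in both. Twist2, a factor of dermal and limb mesenchyme, had 56.0 and 58.6 TPM in replicates 1 and 2. Twist1, which acts in early limb mesenchyme, had 23.8 TPM in replicate 1, against 36.2 TPM in replicate 2, just under Scx in the one and just over it in the other. Msc (musculin), a factor of muscle precursors, had 24.9 and 14.9 TPM. Hand2, a factor of the posterior limb bud, had 4.41 and 5.64 TPM. The lowest, Tcf23, had 0.06 and 0.04 TPM, and 5 of the 10 reached 1 TPM in both libraries.

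The partners and inhibitors of Scx were more abundant than Scx itself, with 1 exception. Tcf4, an E protein that pairs with tissue-restricted bHLH factors, had 240 TPM in replicate 1, against 226 TPM in replicate 2. The other E proteins, Tcf3 with 80.7 and 91.2 TPM and Tcf12 with 67.9 and 72.7 TPM, also stood above Scx. The Id proteins bind E proteins and keep them from DNA. Id3 was the highest of them with 414 and 402 TPM, Id2 had 217 and 223 TPM, and Id1 had 141 and 138 TPM. Id4, with 14.3 and 19.6 TPM, was the exception below Scx in both libraries.

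Mkx lies at chr18:6934518-7004780 on the minus strand (ENSMUSG00000061013.5). It had 44.6 TPM in replicate 1, from 2510 counts, against 48.0 TPM in replicate 2, from 3202 counts. The intervals overlapped, with 39.8 to 48.4 TPM in replicate 1 and 43.4 to 51.6 TPM in replicate 2, so the small gap was within counting and assignment error. In M21 a non-coding gene on the same strand, AC148004.2, overlaps its end with 1 exon. It had no row in the tables.

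Mkx had the second highest level among 18 genes of the TALE class, itself included. Tgif1, a repressor in TGF-β signalling, lay above it with 51.1 and 52.5 TPM in replicates 1 and 2, and the other 16 relatives lay below it in both libraries. Tgif2 had 41.5 and 43.3 TPM, and Irx2, of the Iroquois group, had 23.6 and 27.6 TPM. The lowest by mean, Pbx4, had 3.63 and 3.84 TPM. All 17 relatives reached 1 TPM in both libraries, against 15007 of all 43346 mouse genes, and 11 reached 10 TPM. The list median was 14.5 TPM in replicate 1, against 15.1 TPM in replicate 2.

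**Figure D2:**
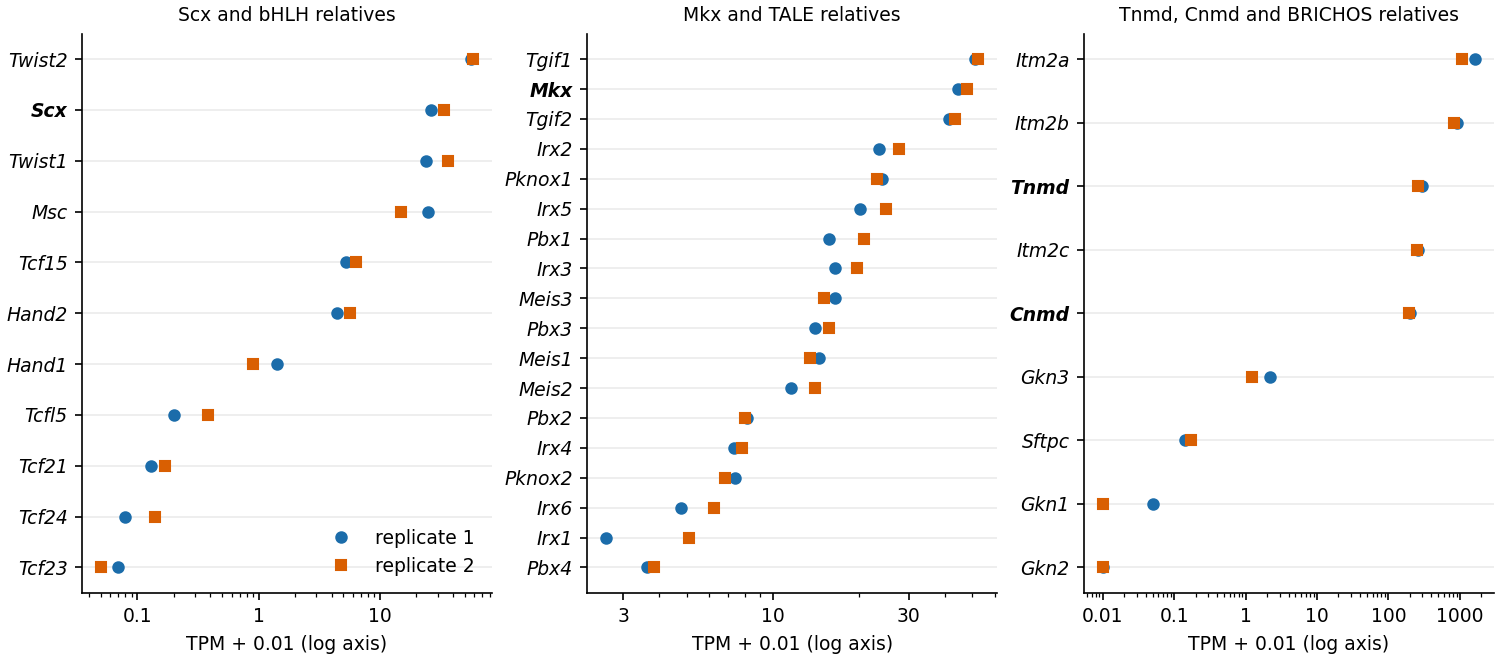
TPM plus 0.01 (log axis) of Scx with 10 bHLH relatives, Mkx with 17 TALE relatives, and Tnmd and Cnmd with 7 BRICHOS relatives, with a circle for replicate 1 and a square for replicate 2 in each row. The genes in bold are Scx, under Twist2, Mkx, under Tgif1, and Tnmd, under Itm2a and Itm2b. Cnmd, also in bold, lies lower, under Itm2c as well.

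Part of the Mkx level came from a short transcript. Mkx-201, the main protein-coding form, had 35.1 TPM in replicate 1, against 36.6 TPM in replicate 2, a share of 78.8% and 76.2%. Mkx-203, a retained-intron transcript of 425 nt, had 8.09 and 10.3 TPM, a share of 18.2% and 21.5%. Because it is short, this rested on few reads: 58.9 and 91.6 of the expected counts, or 2.35% and 2.86% of the reads of Mkx. Its intervals were wide, 3.55 to 12.3 TPM in replicate 1 and 5.87 to 14.2 TPM in replicate 2.

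The size of the gap between Mkx and Scx depended in part on that transcript. With all transcripts, the log2 ratio of Scx over Mkx was -0.76 in replicate 1 and -0.49 in replicate 2 (mean -0.63 ± 0.19), and Mkx was 1.55-fold higher on average. Without its retained-intron transcripts, a choice made after the transcript values were seen, Mkx had 36.2 and 37.4 TPM in replicates 1 and 2. Those values lay below the whole-gene levels of Tgif2 and Tgif1, whose transcripts were not split by type. With the protein-coding transcripts of Mkx alone, also chosen afterwards, the log2 ratio of Scx over Mkx was -0.46 in replicate 1 and -0.13 in replicate 2. The mean was -0.29 ± 0.23, so Mkx was 1.23-fold higher. In replicate 2 the intervals of Scx (31.3 to 35.4 TPM) and Mkx-201 (34.5 to 37.1 TPM) overlapped. In replicate 1 they did not, with 23.7 to 27.8 TPM for Scx and 32.8 to 35.6 TPM for Mkx-201.

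**Figure D3:**
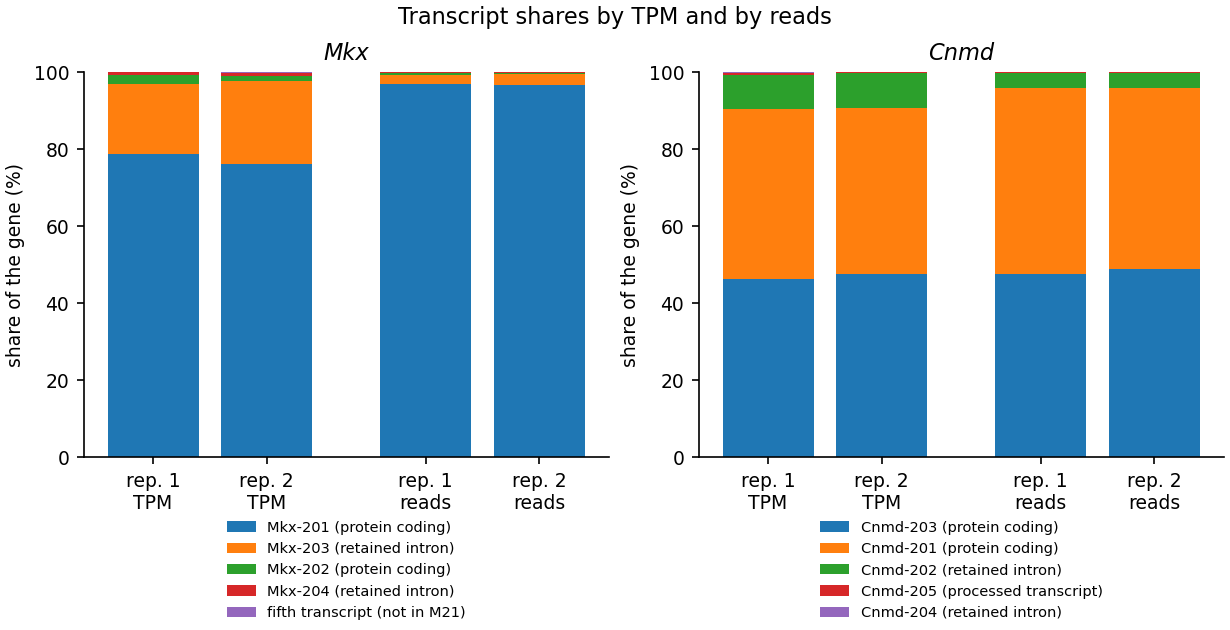
Share of each transcript in Mkx (left) and Cnmd (right), in percent, by TPM and by reads in each library. The retained-intron form Mkx-203 took 18.2% and 21.5% of the Mkx TPM but 2.35% and 2.86% of its reads, while Cnmd was divided almost evenly between Cnmd-203 and Cnmd-201 on both measures.

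Tnmd lies at chrX:133850980-133865577 on the plus strand (ENSMUSG00000031250.8) and has 1 transcript of 7 exons in the tables. It had 293 TPM in replicate 1, from 8184 counts, against 260.1 TPM in replicate 2, from 8892 counts. The intervals, 279 to 291 TPM in replicate 1 and 249 to 260.0 TPM in replicate 2, did not overlap, and replicate 1 was the higher. In both libraries the TPM lay just above the upper bound of its own interval, since the intervals are set around the posterior mean TPM, 285 in replicate 1 and 255 in replicate 2.

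Tnmd stood far above both regulators, by a margin that differed between the pools. It was 11.1-fold higher than Scx in replicate 1 and 7.62-fold higher in replicate 2. The log2 ratios were 3.47 and 2.93, a gap of 0.54 that joins the higher Tnmd and the lower Scx of replicate 1. Tnmd over Mkx was closer between the pools, with log2 ratios of 2.71 and 2.44, or 5.95-fold on average.

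Among 26 genes of tendon matrix, 6 lay above Tnmd in both libraries and 19 below it in both. Col1a1, the chain of the main tendon collagen and also of bone and skin, was the highest with 4931 and 4017 TPM in replicates 1 and 2, on average 16.1-fold above Tnmd. Col3a1 had 3228 and 2793 TPM and Col1a2 had 2547 and 2201 TPM. Ogn (osteoglycin) was next to Tnmd with 278 and 269 TPM, below it in replicate 1 and above it in replicate 2. The list is shared with other connective tissue, and every gene in it reached 1 TPM in both libraries, down to Cilp2 with 3.13 and 2.38 TPM.

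A proteoglycan pair and a thrombospondin found in tendon lay below Tnmd. Fmod (fibromodulin), a proteoglycan that binds collagen fibrils, had 157 and 121 TPM in replicates 1 and 2, and Tnmd was 2.00-fold higher on average. Kera (keratocan), a proteoglycan of cornea and tendon, had 189.5 and 189.8 TPM, and Tnmd was 1.45-fold higher. Thbs4, a thrombospondin of tendon and muscle attachment, had 57.1 and 40.6 TPM.

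Cnmd lies at chr14:79637690-79662170 on the minus strand (ENSMUSG00000022025.9). It had 198 TPM in replicate 1, from 5414 counts, against 196 TPM in replicate 2, from 6567 counts. The intervals overlapped almost fully, with 188 to 199 TPM in replicate 1 and 188 to 198 TPM in replicate 2, and Cnmd was the steadiest of the 4 genes between the pools. Tnmd was 1.48-fold higher than Cnmd in replicate 1 and 1.33-fold higher in replicate 2 (log2 ratios 0.56 and 0.41, mean 0.49 ± 0.11).

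Among 17 cartilage genes, 2 lay above Cnmd in both libraries and 15 lay below it in both. Those above were Col2a1, the main collagen of cartilage, with 689 and 731 TPM in replicates 1 and 2, and Col9a3, a chain of the collagen on its surface, with 352 and 347 TPM. Col11a1, a chain of the fibril core, had 146 and 157 TPM. Sox9, the factor that directs chondrocyte fate, had 61.8 and 63.4 TPM, and Cnmd was 3.14-fold higher on average. Sox6, its partner, was the lowest with 11.5 and 10.4 TPM. Acan, which encodes the proteoglycan core of cartilage, had 26.4 and 29.3 TPM.

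Cnmd was carried by a pair of coding transcripts at nearly the same level. Cnmd-203 had 91.5 TPM in replicate 1, against 93.3 TPM in replicate 2, a share of 46.2% and 47.6%. Cnmd-201 had 87.7 and 84.8 TPM, a share of 44.3% and 43.3%. Their intervals overlapped in both libraries: in replicate 1 they ran over 81.6 to 96.5 TPM for Cnmd-203 and 78.5 to 92.6 TPM for Cnmd-201, so neither form could be placed above the other. The retained-intron form Cnmd-202 had 17.3 and 17.5 TPM, and the coding forms together had 179 and 178 TPM.

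The 2 coding forms differ at the start of exon 6. The bases on either side of the junction of exons 5 and 6 are shown because they are what tells the forms apart within the coding sequence, with the same junction of Tnmd for comparison. They are from GENCODE M21 transcripts on GRCm38, 5′ to 3′ on the gene's strand, spanning chr14:79642033-79645392 on the minus strand for Cnmd and chrX:133862986-133864753 on the plus strand for Tnmd, introns left out. Capitals mark the 12 bases at chr14:79642063-79642074 that only Cnmd-203 holds.
Cnmd-203: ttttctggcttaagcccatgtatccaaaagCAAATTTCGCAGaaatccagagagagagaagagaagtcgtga
Cnmd-201: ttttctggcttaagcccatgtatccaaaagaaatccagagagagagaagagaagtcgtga
Tnmd-201: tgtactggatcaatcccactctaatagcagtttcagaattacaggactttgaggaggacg
The other 6 coding exons are the same in both forms, which code for 1014 and 1002 bases without the stop codon, both multiples of 3. Outside the coding sequence, Cnmd-201 begins 86 bases earlier and Cnmd-203 ends 3 bases later, so the estimated shares draw on those ends as well.

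Tnmd and Cnmd are laid out alike. Both have 7 coding exons, and Tnmd and Cnmd-201 have the same number of coding bases in exon 3 (141), exon 5 (154) and exon 6 (167). Over those 3 exons, 198 of 462 bases were the same when set side by side without gaps (42.9%), from 55.3% in exon 3 to 30.5% in exon 6. No level for unrelated sequence was computed, and a gap within an exon would lower its value. The figure for exon 6 is therefore no measure of kinship. The most alike coding stretch was in exon 7, the last exon, at chrX:133865355-133865389 on the plus strand for Tnmd and chr14:79637978-79638012 on the minus strand for Cnmd. It is shown because it is where the kinship of the genes is plainest, and capitals mark the 32 of 35 bases that are the same (91.4%).
Tnmd: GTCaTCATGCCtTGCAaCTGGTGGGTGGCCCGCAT
Cnmd: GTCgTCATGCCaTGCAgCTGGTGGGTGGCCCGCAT
The longest identical run was 18 bases.

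**Figure D4:**
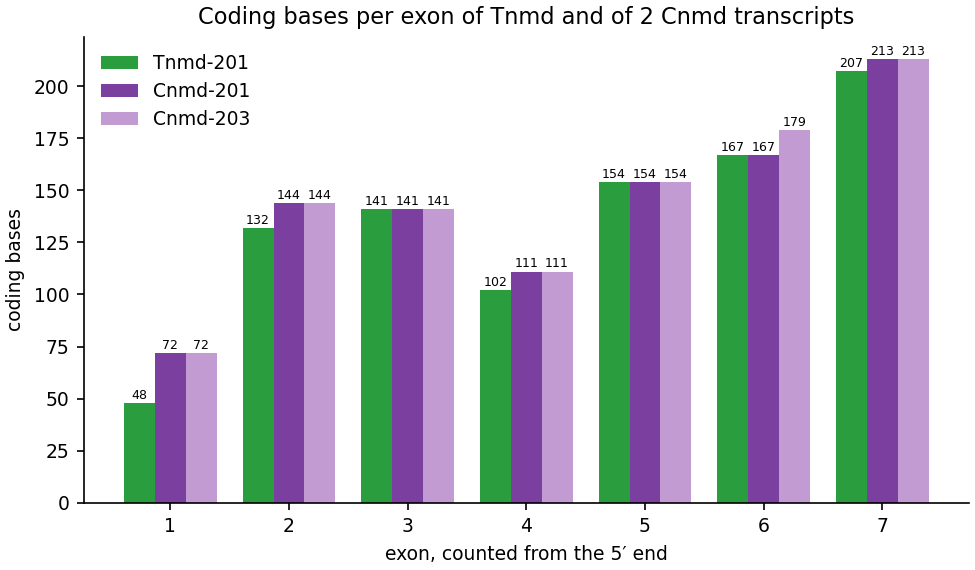
Coding bases in each of the 7 exons, counted from the 5′ end, of Tnmd-201 and the coding transcripts Cnmd-201 and Cnmd-203. Exons 3, 5 and 6 of Tnmd-201 and Cnmd-201 have equal bars, and Cnmd-203 differs from Cnmd-201 in exon 6 alone, with 179 bases against 167.

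The wider BRICHOS family split into a high and a low group. Itm2a, a membrane protein of chondrocytes and muscle, had 1637 and 1061 TPM in replicates 1 and 2, and Itm2b, found in most tissues, had 911 and 821 TPM. Both lay above Tnmd. Itm2c had 263 and 253 TPM, below Tnmd and above Cnmd in both libraries. Gkn3, named for the stomach, had 2.17 and 1.23 TPM. Sftpc, the surfactant protein of lung, had 0.13 and 0.16 TPM, and the stomach gene Gkn2 was listed at 0 in both libraries.

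Other factors described in tendon ran from just above Mkx to well below Scx. Of 11 such genes, all reached 1 TPM in both libraries and 7 reached 10 TPM. Nfatc4, a calcium-regulated factor, was the highest with 53.3 and 57.5 TPM in replicates 1 and 2. Gtf2ird1, a factor reported to act on Mkx in mechanically stimulated tendon cells of rodents, had 49.5 TPM in both libraries, and Klf4 had 39.2 and 38.6 TPM. Egr1, a zinc-finger factor that promotes collagen genes in tendon, had 19.3 and 15.5 TPM. Its relative Egr2 was the lowest with 2.79 and 2.04 TPM.

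Of 18 genes for signals known to act on tendon cells, 14 reached 1 TPM in both libraries. TGF-β signalling is needed for limb tendons in the mouse. Its ligand Tgfb3 was the highest of the list with 87.8 and 83.6 TPM in replicates 1 and 2, the receptor Tgfbr2 had 62.6 and 64.0 TPM, and the ligand Tgfb2 had 62.2 and 61.9 TPM. Tgfb1 had 1.78 and 2.16 TPM. Gdf5, a ligand of joints, had 37.77 and 49.98 TPM, and Spry2, an FGF-induced inhibitor, had 53.9 and 59.3 TPM. Fgf4 had 0.32 and 0.50 TPM, Fgf8 had 0.26 and 0.42 TPM, and Gdf7 was the lowest with 0.17 and 0.22 TPM.

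Of the 4 genes, Scx differed most between the pools and Cnmd least. Differences are log2 of replicate 1 over replicate 2 on TPM plus 0.1, centred on the median of the 15571 genes with a mean of at least 1 TPM. They were -0.39 for Scx, -0.13 for Mkx, 0.15 for Tnmd and -0.01 for Cnmd, while the median absolute difference of all genes was 0.13. None of the 4 (0 of 4) was over 2-fold apart, against 3.63% of all genes, 2.47% higher in replicate 1 and 1.16% higher in replicate 2. None was over 1.5-fold apart either, against 8.00% of all genes. A difference of at least the size seen was found in 14.8% of all genes for Scx, 46.5% for Tnmd, 51.3% for Mkx and 95.7% for Cnmd. Intervals did not overlap for 2 of the 4, Tnmd higher in replicate 1 and Scx higher in replicate 2. Of all genes, 23.2% had intervals apart, 13.6% higher in replicate 1 and 9.63% higher in replicate 2, not matched for level.

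**Figure D5:**
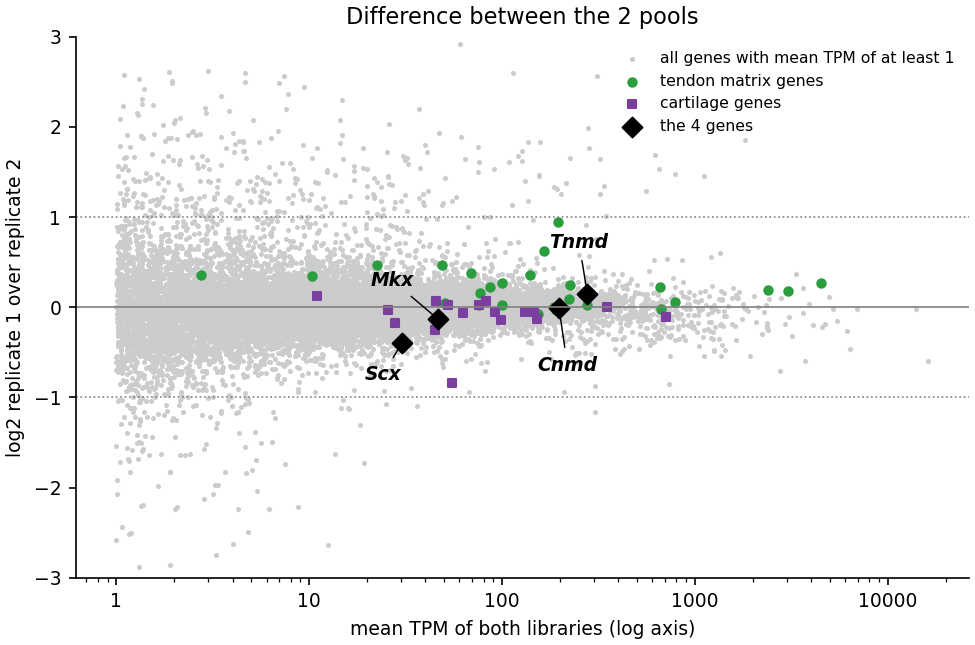
Log2 of replicate 1 over replicate 2 against mean TPM (log axis) for genes with a mean of at least 1 TPM, with tendon matrix genes as circles, cartilage genes as squares and the 4 genes as diamonds; dotted lines mark 2-fold and 102 genes lie beyond the plotted range. Tnmd lies at 0.15, within the tendon matrix genes that spread mostly above 0, and Scx lies at -0.39.

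The tendon matrix list leaned to replicate 1, while the cartilage, TALE and signal lists had medians slightly below 0. Tendon matrix was not alone in its lean. The BRICHOS list had a median of 0.36, with 2 of 4 genes apart and higher in replicate 1, and the vessel growth list 0.14. The bHLH relatives of Scx had a median of -0.19, its partners and inhibitors -0.07 and the tendon factors -0.02. Of the 26 tendon matrix genes, 18 had intervals apart and higher in replicate 1, none (0) higher in replicate 2. Of all genes with a mean of at least 1 TPM, 13.6% were apart and higher in replicate 1 and 9.63% in replicate 2. Those shares were not matched for level, and the list medians were 172 and 130 TPM in replicates 1 and 2. Abundant genes can have narrow intervals, 4.35% of the posterior mean for Tnmd against 15.9% for Scx in replicate 1. Dcn was apart at a difference of 0.05. The list median of the difference was 0.21 against 0 for all genes by the centring. Tppp3, a marker of tendon sheath, stood furthest apart with 259 TPM in replicate 1, against 132 TPM in replicate 2. Of the 17 cartilage genes, 0 were apart and higher in replicate 1 and 5 were higher in replicate 2, with a median of -0.05. For the TALE relatives of Mkx the counts were 0 and 5 of 17 (median -0.11), and for the signals 0 and 5 of the 15 with a mean of at least 1 TPM (median -0.16). Over all lists, none (0) of the 111 genes with such a mean was over 2-fold apart, against 3.63% of all genes, and 10 (9.01%) were over 1.5-fold apart, near the 8.00% of all genes. The lists share tissue with each other, and Comp is in both the matrix and the cartilage lists.

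Of the 5 limb tissue marker lists, those of muscle and bone differed most in sum between the pools. Sums rest on the most abundant genes, and by list median limb mesenchyme differed as well. The median log2 difference was 1.55 for muscle, 0.71 for bone and -0.54 for limb mesenchyme. It was -0.06 for chondrocytes and 0.07 for epidermis. For comparison, 13.6% of all genes with a mean of at least 1 TPM had intervals apart and higher in replicate 1, and 9.63% higher in replicate 2. These shares were not matched for level. All 6 skeletal muscle markers had intervals apart and higher in replicate 1, with a summed level of 4335 TPM in replicate 1, against 1224 TPM in replicate 2. Osteoblast markers summed to 463 and 273 TPM in replicates 1 and 2, with 3 of 4 apart and higher in replicate 1. Chondrocyte markers summed to 1050.0 and 1103 TPM, with 2 of 5 apart and higher in replicate 2. Limb mesenchyme markers summed to 292 and 309 TPM, with 2 of 7 apart and higher in replicate 1 (Tbx5 and Msx1) and 5 higher in replicate 2. Epidermis markers summed to 2297 and 2236 TPM, and 2 of 3 were apart and higher in replicate 1 and 1 higher in replicate 2. The part of these tissues in the Scx and Tnmd values was not tested.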

How the data were processed

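Total RNA longer than 200 nt from 2 pools of limbs was sequenced from 10 ng per library, with spike-ins, per the labels. For each library the authors deposited a gene and a transcript table in the RSEM column layout. Per the file headers these give expected counts (estimated reads that need not be whole), TPM, FPKM, a posterior mean TPM, the bounds of its interval (never-negative signal values) and, for transcripts, the deposited percent of the gene. The genome was mm10 and the annotation GENCODE M4, per the labels and the deposited sample records. The aligner is not given in the sources used here, nor is the counting program or the use of strand. The deposited TPM sums to 1000000 with spike-ins, which took 2.285% and 2.264% of counts. Rows with numeric identifiers, which name no gene, took 0.0001168% and 0.000181%. Amplification of 10 ng means that reads are not independent molecules.

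Symbols, coordinates, transcript types and sequences came from GENCODE M21 on GRCm38, the build of mm10, matched on the identifier without its version (42462 rows). Some lengths differ between annotations, such as Mkx-201 with 3202 nt in the tables and 3650 nt in M21. Python 3.11.15 with numpy 2.4.6 and pandas 2.3.3 computed levels, ratios and differences with 0.1 TPM added. A gene counted as apart between pools past 2-fold, or where the deposited intervals did not overlap. Alternatives were the posterior mean TPM, FPKM, unscaled counts, other pseudocounts (1 and 0.01 TPM), a 1.5-fold limit, no filter, and scaling by TMM in edgeR 4.0.16 (R 4.3.3), by median of ratios or by spike-ins. The 4 genes, the 9 lists and the pairs were chosen with earlier results of these data known. From each list at least the 3 highest by mean TPM and the lowest are named, and other list genes were named after their values were seen. No likeness ranking was made, since 2 libraries give 1 difference per gene.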

Additional observations from a re-analysis of the deposited data

How the results depend on the processing

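Apart from leaving out a library, 47 of 63 alternative levels, ratios and shares stayed within 1 SD of the 2 libraries. A difference between the pools has no such spread, and 27 of 28 stayed within a counting error computed from the expected counts of both libraries. That error leaves out the assignment of reads. Of 5 alternative counts, 4 stayed at 0. For the 4 genes, dropping the filter could change nothing, since all lay above 1 TPM. Rescaling TPM to mouse genes alone gave 48.8 TPM for Mkx and 208 TPM for Cnmd, and the posterior mean gave 193 TPM for Cnmd and a Tnmd difference of 0.10. Without division by length, the log2 ratios were -1.89 for Scx over Mkx and 1.59 for Tnmd over Mkx, and 3 changed sign: -0.063 for Cnmd over Sox9, 0.27 for Fmod over Tnmd and -0.021 for Tnmd over Kera. Counts grow with transcript length, so these are not levels. With the protein-coding Mkx transcripts alone, added after seeing the data, Scx over Mkx was -0.29. At a 1.5-fold limit, 10 of 111 list genes (9.01%) were apart in place of 0, against 8.00% of all genes. No scaling moved the median of all genes by more than 0.04, and with other pseudocounts the centring holds it at 0. The Scx difference stayed negative and the Tnmd difference positive under each, while Cnmd turned from -0.01 to 0.01 without centring. A shift of all genes by so little could not by itself turn the sign for Scx or Tnmd, so their kept signs say little of stability. Leaving out a library gives the values of the other one, which with 2 libraries always lie within 1 SD of the mean and so say nothing of stability: 26.3 to 34.0 TPM for Scx, 44.6 to 48.0 for Mkx, 260.1 to 293 for Tnmd and 196 to 198 for Cnmd. No paired analysis was possible because there is only 1 group. With 2 pools the spread is poorly known, and the intervals cover counting and assignment of reads only.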

Other observations

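Genes that restrain or accompany vessel growth were read beside Tnmd and Cnmd, both described as inhibitors of it. All 10 reached 1 TPM in both libraries. Serpinf1, an inhibitor of vessel growth also made by bone and connective tissue, was the highest with 280 TPM in replicate 1, against 242 TPM in replicate 2, close to Tnmd. Thbs2, a matrix inhibitor that is also in the tendon matrix list, had 110 and 89.5 TPM, and Col18a1, the source of endostatin, had 82.7 and 74.1 TPM. The endothelial genes Pecam1, with 46.1 and 36.4 TPM, and Cdh5, with 31.0 and 25.8 TPM, were present at levels near those of Mkx and Scx. Vegfa, the main vessel growth factor, was the lowest with 3.19 and 4.21 TPM. Intervals were apart and higher in replicate 1 for 6 of the 10 and higher in replicate 2 for 1, Thbs1, against 13.6% and 9.63% of all genes. Those shares of all genes were not matched for level.

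The fetal liver genes Alb, with 2.14 and 10.3 TPM in replicates 1 and 2, and Afp, with 3.41 and 21.5 TPM, were higher in replicate 2. Their part in any value was not tested. Sftpc, Neurod1, Nkx2-5 and Ins2, markers of lung, neurons, heart and pancreas, stayed under 1 TPM in both libraries.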
